A study of Xenopus laevis with 2 samples.

Results

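The genes described here are 10 components of the mTOR pathway and of the control of translation by LARP1, namely mtor, rptor, rictor, mlst8, rps6kb1, tsc1, tsc2, rheb, larp1 and akt1. They were found by symbol in both axon libraries, with the L and S homeologs of the allotetraploid Xenopus laevis genome kept apart, which gave 16 gene names of the 49349 listed. Their mRNAs were measured by RNA-seq of retinal ganglion cell (RGC) axons in 2 replicate libraries, and this is the only condition. Eyes of Xenopus laevis embryos at stages from 33/34 to 37/38 were cultured whole on a filter with 1 µm pores, through which axons grow while cell bodies are held back. The cell bodies were then removed and the axonal RNA was extracted and amplified by PCR. Each library pools the eyes of many embryos, for which the labels name no genotype and no treatment, and the methods state that replicates in the study came from different batches of embryos. Libraries of cell bodies or eyes were not analysed here, and the values therefore make no comparison of axons with another compartment.

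mTOR is a protein kinase that couples growth signals to protein synthesis. It works in the complexes mTORC1, which holds Raptor (rptor), and mTORC2, which holds Rictor (rictor), and mLST8 is a subunit of both. Growth factors act through Akt, which phosphorylates TSC2 in the TSC1 and TSC2 complex. This complex is the GTPase-activating protein of Rheb, and Rheb bound to GTP activates mTORC1. In mammalian cells, mTORC1 then phosphorylates the S6 kinase S6K1 (rps6kb1) and LARP1, a protein that binds the cap and the terminal oligopyrimidine (TOP) tract at the start of mRNAs that code for ribosomal proteins (RPs) and other parts of the translation machinery. In axons, mTOR is known for the control of local protein synthesis downstream of guidance cues and after injury.

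The mRNAs of 4 of the 10 genes were found in both axon libraries. They were rheb, tsc1, rps6kb1 and larp1, with average levels from 12.2 FPKM (sequenced fragments scaled to the length of the transcript and to the size of the library) for rheb.L to 88.3 FPKM for rheb.S. The kinase mtor, the complex subunits rptor, rictor and mlst8, and the upstream genes tsc2 and akt1 were listed at 0 under every name in both libraries. Thus genes of the TSC and Rheb step, S6K1 and LARP1 had values, and the core of neither mTOR complex did. Over all gene names, 93.2% were at 0 in both libraries, so the zeros of the core do not stand apart. By gene name, 6 of 16 (37.5%) had more than 1 FPKM in both libraries, the limit that the study used for its GO analysis, and the other 10 were at 0 in both. Over all gene names, this limit was passed by 4.39%, and over those with a gene symbol by 8.5%. The median level was 0 FPKM in each library, both for the 16 members and for all gene names. With 1 condition and 2 libraries, no test between groups was possible, and an exact two-sided permutation test of 2 values against 2 could not give a p below 0.333. All comparisons below are therefore descriptions of these libraries.

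**Figure D1:**
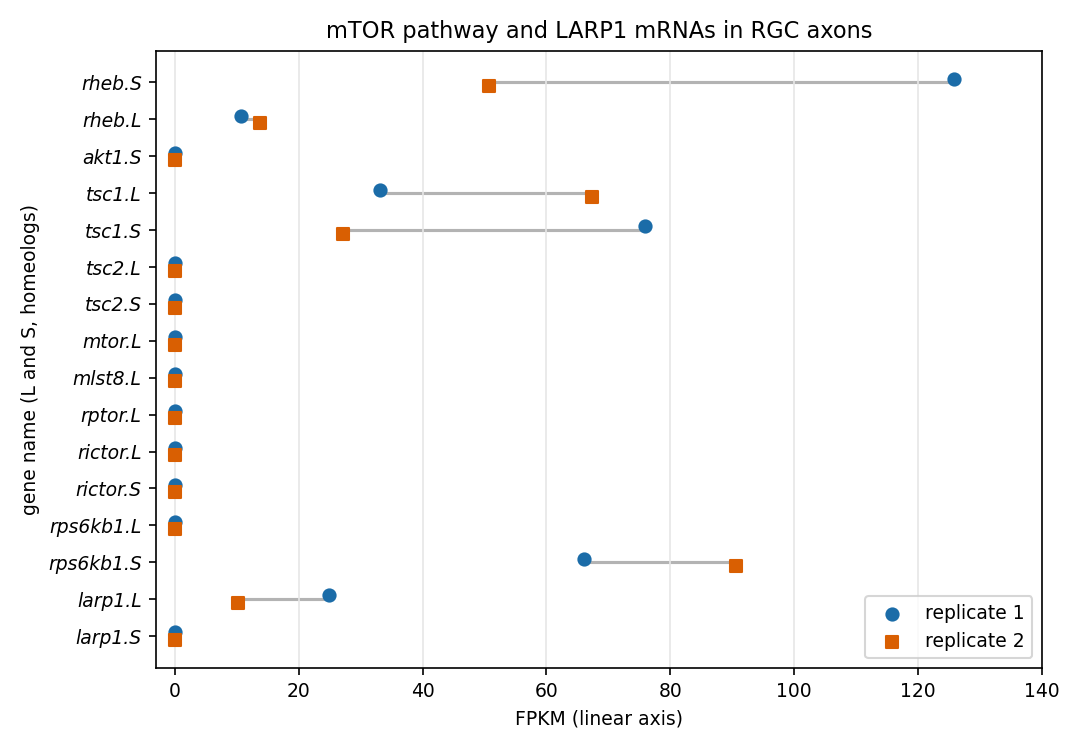
FPKM (linear axis) of the 16 gene names in replicate 1 (circles) and replicate 2 (squares), with a grey line joining the libraries. The 6 names with values lie between 10.2 and 126 FPKM, and the other 10 are at 0 in both libraries.

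Several facts of the libraries bear on these values. Of the 49349 gene names, 93.2% were at 0 in both libraries. Cufflinks can write 0 for a gene that it failed to estimate as well as for a missing mRNA, and the values cannot tell these apart. A member at 0 is therefore only described as listed at 0. Total depth is unknown, since FPKM holds no counts. From the steps of low values, a single read added 3.71 times more FPKM to a gene in replicate 2 than in replicate 1. Replicate 1 was thus the more deeply sequenced, and low values are less precise in replicate 2. Of 16 marker genes of RGCs and axons, 3 passed the limit, namely ebf3, gap43 and stmn2, and the other 13 were at 0, among them pou4f1, pou4f2, rbpms, tubb3, map1b and nefl. Of 31 listed markers of 7 other cell sources, 5 passed it (pcna of dividing cells, col1a1 of connective tissue, dct of the pigment epithelium, and rlbp1 and glul of Müller glia) and 21 were at 0, those of lens and blood included. The summed level of these other markers came to 291 FPKM in replicate 1 and 236 in replicate 2. That of the axon markers came to 546 and 841 FPKM, nearly all of it from stmn2, while gap43.L had 2.85 and 3.11 FPKM. That of the 8 RGC markers came to 99.4 and 64.3 FPKM. The sum of the other markers was higher than that of the RGC markers and lower than that of the axon markers in both libraries, but it runs over 31 listed genes. These sums depend on the number of genes in each list and do not rank the cell sources. The paper reports that its axon material was pure, from RT-PCR and from immunostaining for factors of the soma and nucleus. The part of other cells in the member values was not tested here, and in bulk RNA fewer axons and less RNA per axon cannot be told apart.

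Among the upstream genes, rheb, the small GTPase that activates mTORC1, gave the single gene name with the highest average of the members. The S homeolog, on X. laevis v9.2 chr6S:8420411-8437766, had 126 FPKM in replicate 1 and 50.8 in replicate 2, a 2.48-fold difference between replicates. The L homeolog, on chr6L:10424433-10440953, had 10.7 FPKM in replicate 1 and 13.8 in replicate 2. The S homeolog was thus the higher one in both libraries, and the ranges of the homeologs did not overlap. The ratio of S to L was 11.8 in replicate 1 and 3.69 in replicate 2, so its size differed between the libraries while its direction did not. By the average of both libraries, 29.5% of the 2168 gene names over the limit lay above rheb.S and 72.2% above rheb.L.

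TSC1, also called hamartin, holds and stabilizes TSC2 in the complex that turns Rheb off, and its mRNA was found from both homeologs. For tsc1.L, on chr8L:7444662-7470860, the values were 33.1 FPKM in replicate 1 and 67.4 in replicate 2. For tsc1.S, on chr8S:31605339-31642695, they were 75.9 FPKM in replicate 1 and 27.2 in replicate 2. Here the order of the homeologs switched, with S being 2.29-fold higher in replicate 1 and L 2.48-fold higher in replicate 2, and their ranges overlapped. When the homeologs were summed, tsc1 had 109 FPKM in replicate 1 and 94.6 in replicate 2, a 1.15-fold difference that is smaller than that of either homeolog alone. The sum for rheb was 137 and 64.5 FPKM, a 2.12-fold difference. The averages of the sums, 102 FPKM for tsc1 and 101 FPKM for rheb, were nearly equal. In contrast to tsc1, its partner tsc2, which carries the GTPase-activating domain, was listed at 0 in both libraries for tsc2.L and for tsc2.S. The gene akt1, listed as akt1.S, was at 0 in both libraries as well.

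**Figure D2:**
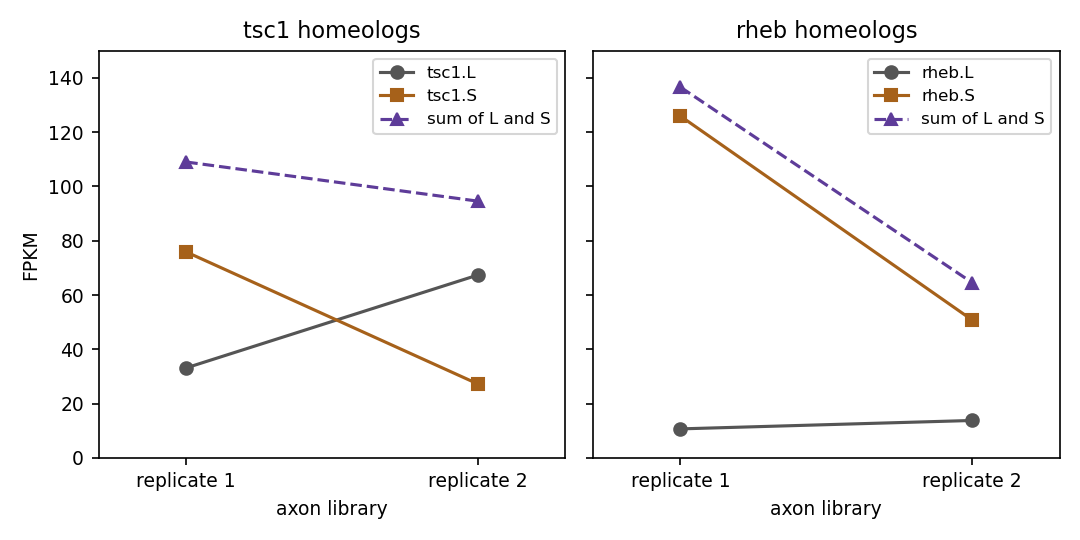
FPKM of the L homeolog (circles), the S homeolog (squares) and their sum (triangles, dashed) of tsc1 (left) and rheb (right) in both axon libraries; lines join values of the same gene and show no time course. The tsc1 homeologs cross while their sum stays between 94.6 and 109 FPKM, and rheb.S lies above rheb.L in both libraries.

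Such a switch was not rare in these libraries. Among 5804 gene symbols listed under exactly 1 L name and 1 S name, 219 had both homeologs over the limit, and in 49 of these (22.4%) the higher homeolog differed between the libraries. In 95 of the 219 pairs (43.4%), 1 homeolog was higher in replicate 1 and the other in replicate 2, as was the case for tsc1 and for rheb. Reads that match both homeologs can be assigned to either, and the part of this in the split within a pair was not tested. Of the 6 member genes that have L and S names, tsc1 and rheb had both homeologs over the limit, rps6kb1 and larp1 had 1, and tsc2 and rictor had none.

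The listed names of the core of the mTOR complexes were all at 0, as were 93.2% of all gene names. The kinase mtor.L on chr7L:58932732-59057368, the mTORC1 subunit rptor.L on chr9_10L:22619055-22832157, the shared subunit mlst8.L and both homeologs of the mTORC2 subunit rictor had no value in either library. The listed loci of mtor.L, rptor.L, mlst8.L and rictor.L each hold at least 1 other gene name, and the same is true of tsc2.L and larp1.S. Hence 6 of the 10 members at 0 share a listed locus with another gene name, and none of the 6 members with values does. Over all gene names, 3.73% of those at a shared locus and 4.64% of those at a locus of their own passed the limit. The part of shared loci in the zeros of the members was not tested.

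Of the effectors, S6K1, the kinase that phosphorylates the RP S6 and other translation factors, was found from its S homeolog. The gene rps6kb1.S, on chr2S:74957908-74984037, had 66.0 FPKM in replicate 1 and 90.6 in replicate 2. This 1.37-fold difference between the replicates was, after that of rheb.L (1.29-fold), the smallest among the 6 members with values. The L homeolog, listed as rps6kb1.L and under the older name p70s6k-a on chr2L:89484334-89505860, was at 0 in both libraries. All of the rps6kb1 signal was therefore given to the S homeolog, at a level that 32.1% of the gene names over the limit exceeded.

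The mRNA of LARP1 was found at a lower level. The gene larp1.L, on chr3L:15191869-15239704, had 24.9 FPKM in replicate 1 and 10.2 in replicate 2, a 2.44-fold difference, and 63.4% of the gene names over the limit had a higher average. The S homeolog, on chr3S:13837865-13891013, was at 0 in both libraries. Of the 10 gene names of La and La-related proteins, larp1 included, larp1.L was the only one over the limit in both libraries. Against 4.39% of all gene names and 8.5% of those with a symbol, 1 of 10 does not stand apart. La itself (ssb), which binds the ends of newly made RNA polymerase III transcripts, came nearest with 0.298 FPKM in replicate 1 and 3.87 in replicate 2 for ssb.S. The gene larp4.S had 0.102 FPKM in replicate 1 and was at 0 in replicate 2, and the names of larp1b, larp6 and larp7 were at 0 in both.

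Ordered by the average of the libraries, the levels were 88.3 FPKM for rheb.S, 78.3 FPKM for rps6kb1.S, 51.5 FPKM for tsc1.S, 50.3 FPKM for tsc1.L, 17.6 FPKM for larp1.L and 12.2 FPKM for rheb.L. Of the 5 pairs of neighbours in this order, only tsc1.L and larp1.L had ranges that did not overlap. In these libraries, the members with values thus fell into an upper set of 4 names and a lower set of larp1.L and rheb.L, and within either set all ranges of neighbours overlapped. The gap between the sets was narrow, from 24.9 FPKM for larp1.L in replicate 1 to 27.2 FPKM for tsc1.S in replicate 2. Names over the limit differed by a median of 2.09-fold between the libraries, so the sets are only a description. Within the upper set, rheb.S was higher than tsc1.S and rps6kb1.S higher than tsc1.L in both libraries, though with overlapping ranges, and the other pairs changed their order between the libraries. Each name of the upper set was higher than both names of the lower set in both libraries, and these 8 pairs, of 15 in all, were the ones whose ranges did not overlap. The replicates differed most for tsc1.S, by 2.79-fold, and 30.5% of the 2168 gene names over the limit had a larger one. Of the 6 names, rheb.S, tsc1.S and larp1.L were higher in replicate 1, and rps6kb1.S, tsc1.L and rheb.L were higher in replicate 2, so neither library was generally the higher one. The genes with a symbol whose values were nearest to those of rheb.S in log2(FPKM + 1) were tnks2.S (125 and 48.2 FPKM), rcan1.S (127 and 54.4 FPKM) and naa38.L (115 and 48.5 FPKM). This likeness is over 2 libraries only.

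The members with values also lay at shorter loci than most of the members at 0, a feature that the choice of members did not use. The listed loci of the 6 names with values spanned from 16.5 kb (rheb.L) to 47.8 kb (larp1.L). Those of the names at 0 spanned from 53.1 kb (larp1.S) to 213.1 kb (rptor.L), with the exception of rps6kb1.L, which spans 21.5 kb and was at 0. With a limit of 50 kb, which was chosen after the spans were seen, 6 of 7 members under it and 0 of 9 members over it had values. All members at a shared locus also lie at loci over 50 kb, so these features of the members are not separate. Over all gene names the same limit made little difference, with 4.42% of 37760 names under 50 kb and 4.31% of 11589 names at 50 kb or more passing 1 FPKM in both libraries. Of the other pathway genes described below, 16.9% of 77 names under 50 kb and 12.1% of 33 names at 50 kb or more passed. Among names with loci of at least 100 kb, where mtor.L, rptor.L and both rictor homeologs lie, the share was 3.02%, against 6.23% for loci from 10 to 20 kb and 2.77% for loci under 10 kb. The locus span counts introns and any neighbour merged into the locus, and transcript lengths were not used here.

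**Figure D3:**
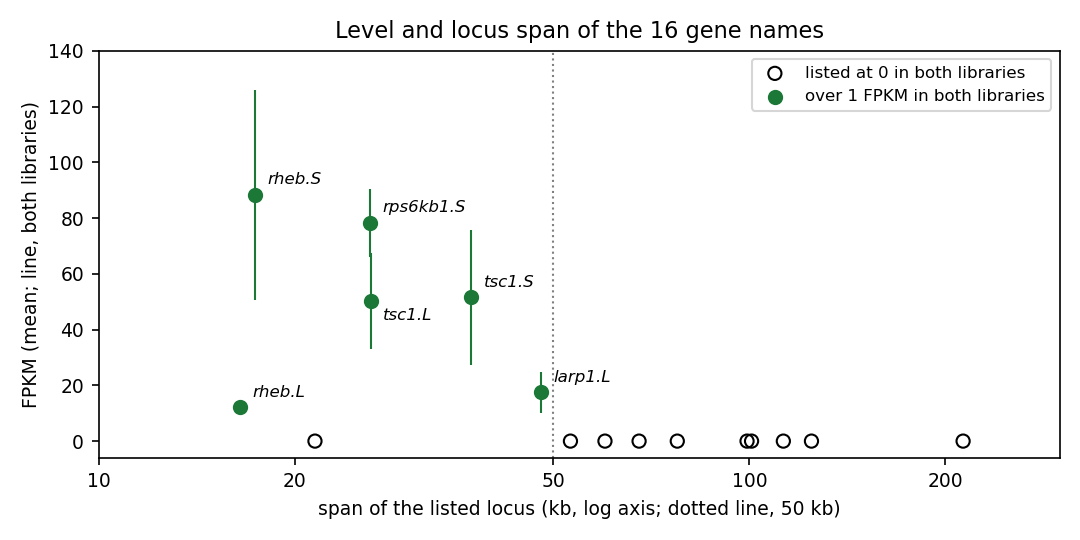
FPKM (mean of the libraries, with a line from the lower to the higher one) against the span of the listed locus (kb, log axis) for the 16 gene names; filled points are over 1 FPKM in both libraries and open points are at 0. All 6 filled points lie to the left of the dotted line at 50 kb, and 9 of the 10 open points lie to its right.

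The rest of the pathway was examined with a list of 81 other genes, of which 71 are listed. Of these, 14 had at least 1 gene name over 1 FPKM in both libraries, 50 were at 0 under all their names, and the other 7 had only lower values or a value over the limit in 1 library. By gene name, 17 of 110 (15.5%) passed the limit. The genes that passed were spread over the inputs and outputs of the pathway, while 0 of 8 names passed for the further complex subunits and assembly factors akt1s1, deptor, mapkap1, prr5, prr5l, tti1 and telo2. Against the 4.39% of all gene names and 8.5% of those with a symbol, 0 of 8 does not stand apart, and the counts by role below are given as descriptions beside the same shares.

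Of the growth factor and PI3K inputs, 5 of 24 gene names passed. The adaptor grb2.L, which links receptors to Ras, had 43.4 FPKM in replicate 1 and 135 in replicate 2. The insulin receptor substrate irs2.L had 58.0 FPKM in replicate 1 and 86.7 in replicate 2. While akt1 was at 0, its paralog akt2.L had 4.72 and 46.2 FPKM in replicates 1 and 2. The receptors insr and igf1r, the kinase pdpk1, which phosphorylates Akt, and the catalytic subunits pik3ca and pik3cb were at 0. Another PI3K subunit, pik3r2.S, passed with 17.9 FPKM in replicate 1 and 7.74 in replicate 2. A row that names pik3r2 and pik3r3.S passed as well, with 3.46 and 1.11 FPKM. The name pik3r2.L was at 0, and the row of pik3r1 stayed under the limit in both libraries. The phosphatase pten, which opposes PI3K, stayed under the limit in replicate 1, with 0.631 FPKM for pten.S and 0.888 FPKM for pten.L, and had 2.34 and 0.824 FPKM in replicate 2. The 3.71-fold difference of pten.S has the size of the single-read step between the libraries. No difference in its level is read from it. The gene pten lies outside the rule for named genes and was chosen after its values were seen. The same holds for pik3r2.S, for the row of pik3r2 and pik3r3.S, and for prkab1.S and atg13.L below. It also holds for the genes at or near 0 that are named in this and the next paragraphs.

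In the lysosomal arm, through which amino acids reach mTORC1, 1 of 24 gene names (4.17%) passed, a share close to that of all gene names. It was lamtor5.S, a subunit of the Ragulator complex that anchors the Rag GTPases, with 154 FPKM in replicate 1 and 316 in replicate 2. The other Ragulator genes, lamtor1 to lamtor4, were at 0. Of the Rag GTPases, rragc.L had 0.792 and 2.67 FPKM and rragd.S 2.09 and 0.598 FPKM in replicates 1 and 2, and rraga was at 0. Of the energy and stress inputs, 6 of 23 names passed. The highest was ddit4.S, known as REDD1 in mammals, an inhibitor that acts on mTORC1 through the TSC complex, with 207 FPKM in replicate 1 and 111 in replicate 2. The regulatory AMPK subunit prkag1.S had 21.2 FPKM in replicate 1 and 44.4 in replicate 2. Another AMPK subunit, prkab1.S, had 23.6 FPKM in replicate 1 and 4.10 in replicate 2. The catalytic AMPK subunits prkaa1 and prkaa2 were at 0.

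Of the translation outputs, 3 of 16 gene names passed, and they were among the highest of the list. The cap-binding protein eif4e.L had 181 FPKM in replicate 1 and 143 in replicate 2. The S6 kinase substrate rps6, itself an RP of the small subunit, had 226 FPKM in replicate 1 and 223 in replicate 2 from the S homeolog. The L homeolog rps6.L had 61.2 FPKM in replicate 1 and 537 in replicate 2, so the S homeolog was the higher one in replicate 1 only. The eIF4E-binding protein gene eif4ebp2 and the S6 kinase targets eif4b, eef2k and pdcd4 were at 0. In the class of autophagy and other outputs, 2 of 15 names passed, namely fkbp1a.S and the autophagy gene atg13.L. The first codes for the protein through which rapamycin binds mTOR, and was counted in this class although it is not an output. It had 166 FPKM in replicate 1 and 93.4 in replicate 2, and atg13.L was lower than fkbp1a.S in both libraries. A difference of more than 8-fold between replicates was found for 2 of the 17 pathway names over the limit (11.8%), namely rps6.L and akt2.L, both higher in replicate 2. The same was seen for 10.8% of all gene names over the limit and for none of the 6 members.

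**Figure D4:**
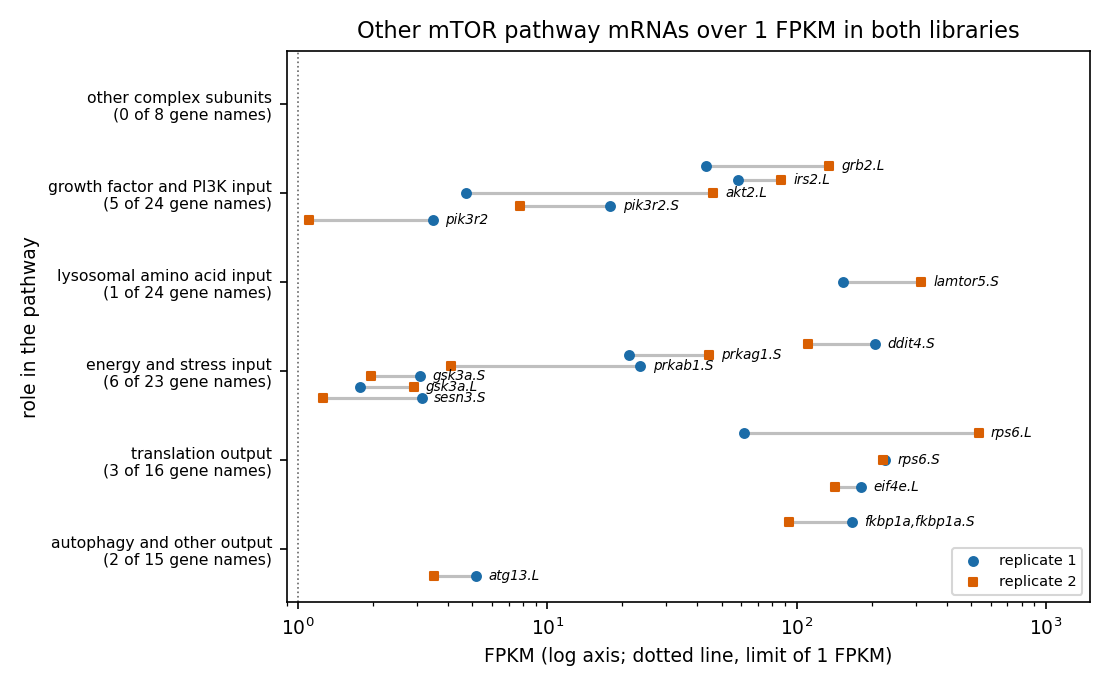
FPKM (log axis) in replicate 1 (circles) and replicate 2 (squares) of the 17 other mTOR pathway gene names over 1 FPKM in both libraries, grouped by role, with the number of names over the limit of those listed. The complex subunits have 0 of 8 names, and the widest gaps between the libraries are those of akt2.L and rps6.L.

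Besides LARP1, some other proteins are known to bind TOP mRNAs or related sequences in mammalian cells. Of 5 such genes, 4 had a name over the limit. By gene name, 4 of 6 passed, against 4.39% of all gene names and 8.5% of those with a symbol. The row that names both tia1 and tial1.L had 18.5 FPKM in replicate 1 and 43.6 in replicate 2, and does not tell these genes apart. A row of its own for tia1.L had 3.87 and 3.59 FPKM in replicates 1 and 2. Both values are under 5 FPKM, where values step by whole reads, so its pass of the limit rests on imprecise values. The poly(A)-binding protein pabpc1, on rows that name both homeologs, had 93.7 FPKM in replicate 1 and 28.7 in replicate 2. The zinc finger protein cnbp had 56.5 FPKM in replicate 1 and 156 in replicate 2. The gene pabpc4 was at 0, and so was the row of its own for tial1, which counts among the 4 genes only through the row shared with tia1. The range of larp1.L, from 10.2 to 24.9 FPKM, lay below those of cnbp and pabpc1, overlapped that of the tia1 and tial1 row and lay above that of tia1.L.

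Of the mRNAs that LARP1 is known to bind, those of RPs had a median far above larp1.L. Names of RPs and of the others lay on both sides of it. Of 80 RP symbols, 76 are listed, 73 had a gene name over the limit and 2 were at 0. Of their 120 names, 113 (94.2%) passed, against 4.39% of all gene names and 8.5% of those with a symbol. The median over the 120 names was 591 FPKM in replicate 1 and 671 in replicate 2. The cDNA was amplified with a method made for single cells. The part of amplification and of transcript length in the gap to larp1.L was not tested. The lowest average of an RP name over the limit was 2.78 FPKM. Of 14 other genes with TOP mRNAs in mammals, 13 are listed and 7 had a name over the limit. Over their 20 names, of which 9 (45%) passed, the median was 0.508 FPKM in replicate 1 and 3.38 in replicate 2, below larp1.L. The highest were tpt1.L, with 3637 FPKM in replicate 1 and 3458 in replicate 2, and the elongation factor subunit eef1b2.L, with 1730 and 1326 FPKM. The histone chaperone nap1l1 had 99.4 and 326 FPKM, eif3e.L, a subunit of initiation factor eIF3, had 66.7 and 175 FPKM, and the elongation factor eef1a1.L had 60.3 and 146 FPKM. These 5 names lay above larp1.L in both libraries, and so did pabpc1, which is also on this list and whose values are given above. Ranges overlapped that of larp1.L for the elongation factor subunits eef1g.L (27.7 and 19.8 FPKM) and eef1g.S (24.2 and 10.1 FPKM). The same held for eif3e.S (5.40 and 16.7 FPKM). Of these names, eef1g.L was higher than larp1.L in both libraries, eef1g.S was lower in both, and eif3e.S was higher in replicate 2 only. Thus not every TOP mRNA exceeded larp1.L. The values of eif3h.L (0.821 and 6.09 FPKM) and of the name hnrnpa1 (0.178 and 0.659 FPKM) were below those of larp1.L in both libraries. Between the libraries these names differed by 7.42-fold and 3.71-fold, which are ratios of whole reads at the depth step given above. The genes npm1, eif3f, eif4b and eef1d were at 0 in both libraries.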

How the data were processed

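For both axon libraries, the authors aligned reads with HISAT2 2.1.0 to the genome build X. laevis v9.2, ran Cufflinks 2.1.1 and deposited its FPKM, with 1 value per row and library. The gene annotation is not given in the sources used here. Multi-mapping reads between homeologs and PCR amplification of the cDNA can change single values.

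Gene names were split at commas and matched by symbol, and rows that share a gene name were added up (no member has more than 1 row). A name was counted with more than 1 FPKM in both libraries. Differences on a log scale used a pseudocount of 1 FPKM. The relative depth was the log2 step with the largest number of names under 5 FPKM at ratios of whole reads (140 of 621, with a tolerance of 0.01). This step and the counts were run on simulated data with known answers. For the step, both simulated libraries were drawn from the same levels, with the sampling of reads as the only noise. PCR amplification was not simulated, so the run does not test the step under the noise of these libraries. A table of RefSeq gene names (X. laevis v10.1, no coordinates used) gave the same symbol for 6 of the 9 member names that carry a numbered locus. The other 3, of rheb.S, rptor.L and mtor.L, are listed there by number only.

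The members and gene lists were chosen with earlier results of these data known. The result of 1 gene of the pathway list is not reported here, and the gene was left out of its counts. Named genes were all members, and of each other list the names over the limit or the 10 highest; markers over the limit; and the 3 genes nearest to the highest member. The alternatives were the limit, the pseudocount, the handling of rows, the background and leaving out each replicate. Python 3.11.15, numpy 2.4.6, pandas 2.3.3 and matplotlib 3.10.9 were used.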

Additional observations from a re-analysis of the deposited data

How the results depend on the processing

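The 6 member names and 4 member genes over 1 FPKM in both libraries stayed at these counts with limits of 0 and 5 FPKM, with the highest row of a name, and in either library alone. Without rows that name several symbols, the member names over the limit were 3, the member genes 3 (tsc1 was lost), the TOP genes 4 in place of 7 and the other pathway genes 9 in place of 14, which was also their number with a limit of 5 FPKM; the rows of rheb.S and both tsc1 homeologs also carry a numbered locus. The percentage of all names over the limit, 4.39%, was 5.44% with a limit of 0 FPKM, 3.23% with 5 FPKM, 3.68% without rows of several symbols, 8.50% for genes with a symbol, and 4.71% to 4.93% in single libraries. The share of names passing under 50 kb was 1.03 times that at 50 kb or more; this turned to 0.894 with a limit of 0 FPKM and ranged from 0.986 to 1.01 in single libraries, while it was 1.24 with a limit of 5 FPKM, 1.19 for genes with a symbol, 1.18 for names above 0 in a library and 1.11 without rows of several symbols, so it has no settled direction over all genes. For these values, the cause was not tested. The differences between the libraries kept their direction with pseudocounts of 0.1 and 10 FPKM for the 6 members. With 2 libraries, leaving out 1 gives the value of the other: without replicate 1, the average of tsc1.S went from 51.5 to 27.2 FPKM, of rheb.S from 88.3 to 50.8 FPKM and of larp1.L from 17.6 to 10.2 FPKM, and without replicate 2, that of tsc1.L went from 50.3 to 33.1 FPKM. No paired analysis was possible because there is a single group. The number of libraries, the unknown total depth and the failed estimates that may stand behind a 0 limit what can be read from members at 0.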
